A study of Mus musculus with 24 samples.

Results

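Ranbp6, Xpo7, Xpo1, Ipo5, Ipo7, Kpnb1 and Tnpo1 encode receptors that carry cargo through the nuclear pore, and the protein-protected sites (PPSs) on their RNAs were followed in MEL cells, a murine erythroleukemia line that matures along the erythroid lineage when grown with DMSO. The genes were selected with earlier results of the same lists known, in which Ranbp6 stood out by the score of its day 4 PPSs, and the others were chosen by family. Scores and coverage of the 7 genes are therefore given as a description, without a test. Members were the PPSs that overlapped the mm10 gene body of one of them by at least 1 nt on the same strand. Day 0 had 277 such PPSs of 138689, day 2 had 255 of 169575 and day 4 had 200 of 152513, which makes 732 of 460777 in all. After PPSs of 20 to 40 nt, the size a ribosome protects, were left out, 553 were analysed.

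PIP-seq libraries came from formaldehyde-crosslinked cells at day 0 (undifferentiated, no DMSO) and after 2 or 4 days in 2% DMSO. For each day and each of 2 replicates, extract was digested either with RNaseONE, which cuts single-stranded RNA (ssRNase), or with RNase V1, which cuts paired RNA (dsRNase), once with proteins in place (footprinting) and once after their removal (structure-only), which gives 24 libraries in 12 groups of 2. All came from 1 cell line, and a PPS is a stretch enriched in footprinting over structure-only reads. The deposited lists pool a day, but a name field records which nuclease and replicate each merged call came from, so that 4 call sets per day could be separated. A call set has the value of every merged PPS that holds at least 1 of its calls. It is thus credited with the full length of that PPS, including bases that only another nuclease or replicate called, which can raise its coverage. Call sets of a day are therefore not separate evidence. Because the call sets share merged coordinates, their spread understates that between replicates. With 2 replicates against 2, an exact permutation test cannot give a two-sided p below 0.333, so differences are described by whether the replicates of 2 days overlap. The values depend on how much of an RNA was present as well as on protein binding, and less RNA and less protection per RNA cannot be told apart in these lists.

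Exonic coverage, the percentage of a gene's annotated exonic nucleotides inside a PPS, was used as the level, and 9550 of 21938 protein-coding genes had an exonic PPS at some day. Calls per call set over all genes ranged from 20927 (dsRNase, replicate 2, day 2) to 91091 (ssRNase, replicate 2, day 2). The other dsRNase call set of day 2 held 41323 calls, against 34589 and 41265 at day 0 and 68632 and 52174 at day 4. The cell type labels were set against erythroid markers. Pooled exonic coverage was higher at day 4 than at day 0 in 9 of 9, next to 48.5% of all 9550 genes. Among them were Hba-a1, an alpha globin (25.99% at day 0 and 76.8% at day 4), and Hbb-bs, a beta globin (10.4% and 78.9%). Replicate against replicate, the change ran from -6.14 to 9.02 points in Klf1 and from -2.38 to 8.86 points in Gata1. The rise of these markers thus lay within the replicate spread, whereas every such change was positive in the others. By nuclease, Tfrc was lower at day 4 with ssRNase and higher with dsRNase. Of 10 markers of other blood lineages 8 had no exonic PPS at any day. The exceptions were Cd68, a macrophage marker, with 4.38% at day 2 and 0 at the other days, and Pf4, a platelet gene, with 31.2%, 6.93% and 11.5%.

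Transport receptors of the importin beta family are ring-shaped or solenoid proteins that bind cargo and the small GTPase Ran. Importers take up cargo in the cytoplasm and release it in the nucleus on contact with Ran-GTP, whereas exporters bind cargo together with Ran-GTP and release it after GTP hydrolysis in the cytoplasm. Kpnb1 is importin beta 1, which carries classical nuclear localization signals through an importin alpha adaptor. Tnpo1 (transportin 1) imports several RNA-binding proteins, and Ipo5 and Ipo7 import ribosomal proteins and histones, among other cargoes. Xpo1 (CRM1) exports proteins with leucine-rich signals and several classes of RNA. Xpo7 (exportin 7) is a broad-specificity exporter known for its part in the nuclear maturation of erythroblasts. Ranbp6 is the closest relative of Ipo5 in the family, and its gene has no intron.

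The sequences below are those of the highest-scoring PPS that lay wholly within coding sequence (CDS) or an intron in 5 of the genes, because the longest, the recurrent and the related PPSs described here are among them. They were read from the GRCm38 (mm10) assembly, 5′ to 3′ on the strand of the gene. In Ranbp6 (chr19:29810677-29810976, minus strand, CDS), the middle 300 nt of an 880-nt PPS of day 4 are shown. In Xpo1 (chr11:23267002-23267203, plus strand, intron, day 0) and Xpo7 (chr14:70765332-70765390, minus strand, intron, day 2) the whole PPS is shown. Capitals mark bases that lay in a PPS at all 3 days. Of the Ranbp6 stretch this held for 212 of 300 nt, of Xpo1 for 109 of 202 nt and of Xpo7 for 54 of 59 nt.
Ranbp6: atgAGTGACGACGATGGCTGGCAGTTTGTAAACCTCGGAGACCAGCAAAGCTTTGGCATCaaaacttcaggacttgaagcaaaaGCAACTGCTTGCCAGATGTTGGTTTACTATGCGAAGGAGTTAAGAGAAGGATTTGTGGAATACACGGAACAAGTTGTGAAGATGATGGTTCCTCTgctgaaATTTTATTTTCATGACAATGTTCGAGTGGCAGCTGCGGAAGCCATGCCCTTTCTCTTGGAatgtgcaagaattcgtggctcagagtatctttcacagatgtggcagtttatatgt
Xpo1: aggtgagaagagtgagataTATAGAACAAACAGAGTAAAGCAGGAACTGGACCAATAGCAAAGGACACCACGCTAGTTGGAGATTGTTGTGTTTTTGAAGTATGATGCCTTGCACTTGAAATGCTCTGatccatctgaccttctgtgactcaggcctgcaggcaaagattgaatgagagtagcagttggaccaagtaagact
Xpo7: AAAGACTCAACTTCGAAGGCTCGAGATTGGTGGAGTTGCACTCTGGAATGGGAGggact

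In Ipo7 (chr7:110046335-110046551, plus strand, day 0) the PPS of 217 nt lay in an intron, and capitals mark the 184 nt annotated as Snora23, a small nucleolar RNA that guides pseudouridylation and is processed from this intron.
Ipo7: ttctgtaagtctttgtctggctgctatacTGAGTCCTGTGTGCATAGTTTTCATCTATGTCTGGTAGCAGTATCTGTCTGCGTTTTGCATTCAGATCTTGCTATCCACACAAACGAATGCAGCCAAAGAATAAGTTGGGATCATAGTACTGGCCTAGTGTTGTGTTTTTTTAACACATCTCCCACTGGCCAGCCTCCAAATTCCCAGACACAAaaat
The last pair compares a CDS PPS of Ipo5 at day 0 (chr14:120923052-120923136, plus strand) with the stretch of Ranbp6 that aligns to it (chr19:29812363-29812447, minus strand), and capitals mark the 66 of 85 bases that are identical. At day 0 all 85 nt lay in a PPS in both genes, in Ipo5 because the stretch was chosen so. At day 2 this held for 66 nt of Ranbp6 and 0 nt of Ipo5, and at day 4 for 76 and 48 nt.
Ipo5: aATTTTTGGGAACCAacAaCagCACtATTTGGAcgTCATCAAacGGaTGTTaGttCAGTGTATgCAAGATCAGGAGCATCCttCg
Ranbp6 (aligned): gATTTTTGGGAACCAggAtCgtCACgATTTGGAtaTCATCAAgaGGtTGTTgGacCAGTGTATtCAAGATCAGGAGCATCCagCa

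Ranbp6 RNA was far more widely protected at day 4 than before DMSO. The gene (ENSMUSG00000074909.5, chr19:29808400-29812974, minus strand) has 1 exon of 4575 nt, with 3318 nt of CDS and a 3′ UTR of 1233 nt. Pooled over the calls of a day, PPSs held 48.5%, 50.7% and 76.1% of the exon at day 0, 2 and 4. With ssRNase, coverage was 38.7% and 37.7% in the 2 replicates of day 0, 29.4% and 42.3% at day 2, and 68.7% and 66.4% at day 4. With dsRNase, it was 15.8% and 28.1% at day 0, 25.5% and 18.3% at day 2, and 72.2% and 59.5% at day 4. All 4 call sets of day 4 lay above all 4 of day 0 and of day 2, whereas the replicates of day 2 and day 0 overlapped with either nuclease.

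The rise from day 0 to day 4 was 27.5 percentage points for the pooled calls and lay between 25.8 and 33.0 when each replicate of day 4 was set against each of day 0 (4 pairs). By nuclease, the mean rise was 29.4 points with ssRNase (pairs from 27.7 to 31.02) and 43.9 points with dsRNase (pairs from 31.4 to 56.3). Of the Ranbp6 PPSs, 8 of 18 at day 0 and 14 of 18 at day 4 held calls of both nucleases and count in full for each. The rises with ssRNase and dsRNase are therefore not separate evidence. Group means at day 4 were 67.6% ± 1.62 (SD, n = 2) with ssRNase and 65.8% ± 8.92 (SD, n = 2) with dsRNase. The background is wide. Of the 9550 genes, 22.2% had both day 4 replicates above both day 0 replicates with ssRNase and 27.2% with dsRNase, and 8.08% had all 4 day 4 call sets above all 4 of day 0. No such share was computed for day 4 against day 2. Ranbp6 ranked 69 among the 9550 genes by pooled coverage at day 0, 45 at day 2 and 7 at day 4. It was thus among the most covered RNAs before DMSO as well.

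**Figure D1:**
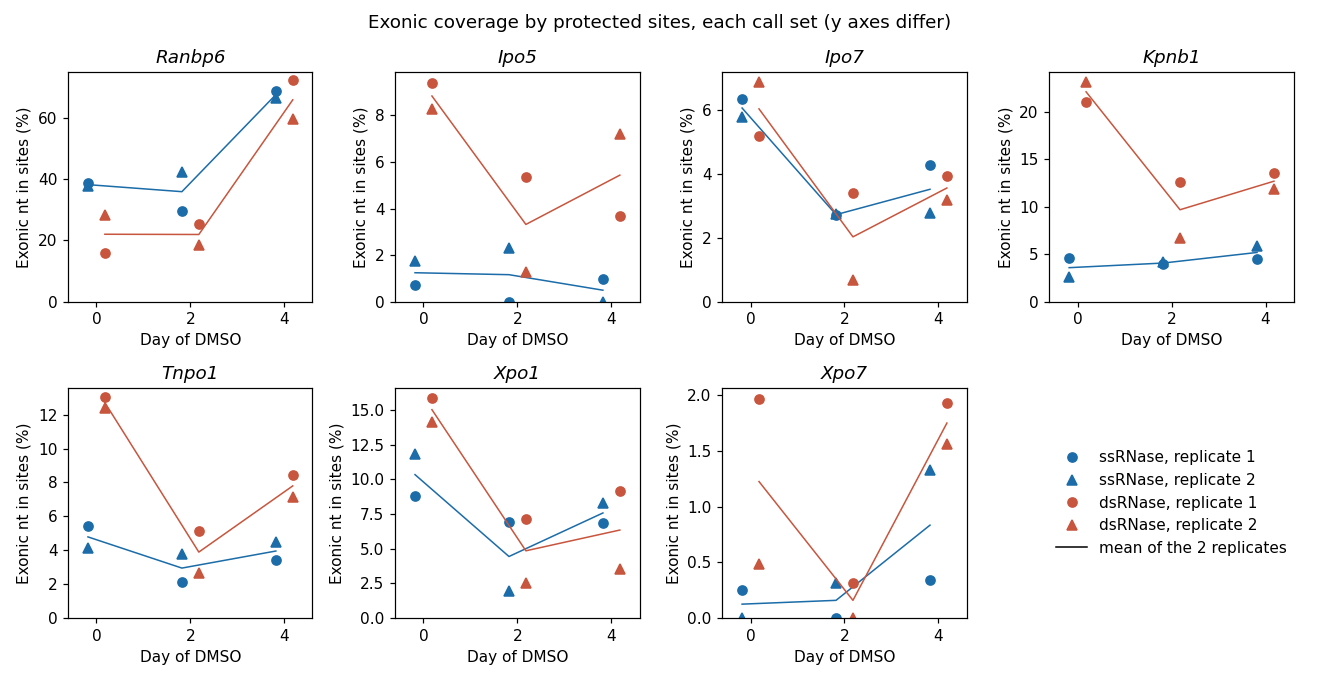
Exonic coverage (percentage of exonic nt inside PPSs) against day of DMSO for the 7 genes, with 1 point per nuclease and replicate and lines through the means of 2 replicates; each panel has its own y axis from 0. The Ranbp6 points of day 4 lie between 59.5% and 72.2%, above every point of day 0, while the dsRNase points of Ipo5, Ipo7, Kpnb1, Tnpo1 and Xpo1 are lower at day 4 than at day 0.

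Between day 0 and day 4 the Ranbp6 PPSs also became longer and higher in score at an equal number, whereas at day 2 they were more numerous, shorter and lower in score. There were 18, 26 and 18 on the 3 days, with median lengths of 115, 77.5 and 148 nt and median scores of 23.3, 16.6 and 28.7. The score is the authors' enrichment value, and a PPS merged from several calls carries a larger one, so that scores were compared as descriptions only. The highest score was 61.38 at day 0 (rank 363 in the list, 188 nt), 76.80 at day 2 (rank 102, 259 nt) and 292.73 at day 4 (rank 1, 880 nt). The day 4 PPS (chr19:29810387-29811266) merged 22 calls, of which 4 and 5 came from ssRNase replicates 1 and 2 and 7 and 6 from dsRNase replicates 1 and 2. Every call set thus contributed to it. Its length ranked 10 in the list. The next score of day 4 in the list as a whole was 199.51. A second Ranbp6 PPS of day 4 (chr19:29811849-29812311, 463 nt, 11 calls) had a score of 159.78 and rank 7.

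Counted from the 5′ end of the transcript, the long PPS of day 4 ran from nt 1709 to nt 2588. At day 0 the same stretch was covered by 5 separate PPSs between nt 1706 and nt 2580, with scores from 22.35 to 61.38, and at day 2 by 5 between nt 1768 and nt 2590, with scores from 8.35 to 76.80. The second one, from nt 664 to nt 1126, overlapped PPSs of the other days that scored at most 54.43 (day 0, nt 787 to 1016) and 35.83 (day 2, nt 968 to 1118). Over the whole transcript, 1460 nt (31.9%) lay in a PPS at all 3 days and 965 nt (21.1%) at no day. A further 1340 nt (29.3%) were covered at day 4 and not at day 0, against 80 nt (1.75%) covered at day 0 and not at day 4. When PPSs of the 3 days were joined where they overlapped, Ranbp6 held 14 regions, of which 9 had PPSs at all 3 days, 3 at day 4 only and none at day 0 only. In the series, 14.4% of 220639 such regions had PPSs at all 3 days and 19.5% at day 0 only. A further 46004 had them at day 4 only, a share close to the 3 of 14 in Ranbp6. The share at all 3 days depends on coverage, because wide PPSs join more easily.

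**Figure D2:**
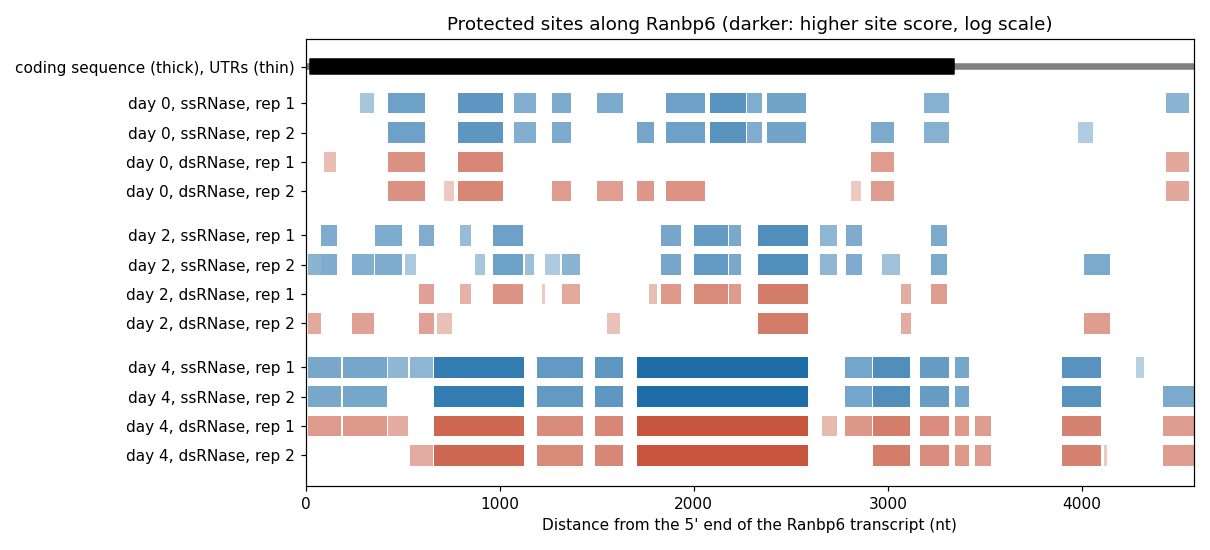
PPSs of each call set along the Ranbp6 transcript, in nt from its 5′ end, blue for ssRNase and red for dsRNase, darker for a higher score; each block is the merged PPS, so edges are shared between call sets. The block from nt 1709 to nt 2588 is present in all 4 call sets of day 4, where days 0 and 2 have shorter blocks.

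The change reached both the CDS and the 3′ UTR of Ranbp6. CDS coverage was 61.0%, 65.6% and 87.1%. By call set it was 49.7% and 49.6% (ssRNase) and 18.3% and 35.2% (dsRNase) at day 0, and 84.8%, 78.1%, 83.5% and 66.0% in the same order at day 4. The 3′ UTR was covered to 15.9%, 10.6% and 46.7%. Its call sets read 9.65%, 6.24%, 9.65% and 9.65% at day 0 and 25.6%, 35.2%, 42.0% and 43.4% at day 4, with no overlap. The share of all genes with such a result in the CDS or 3′ UTR was not computed. A 3′ UTR PPS at chr19:29808875-29809077 had a score of 62.59 at day 4, where the region had 6.57 at day 0 and 24.94 at day 2. The bases inside PPSs were somewhat richer in G and C than the rest of the exon, at 43.0% against 39.2% at day 0, 43.8% against 38.2% at day 2 and 42.0% against 38.2% at day 4. Since PPSs covered more of the CDS than of the 3′ UTR, this also sets CDS against 3′ UTR, and these were not separated. Each of the other members had less G and C inside PPSs than outside at day 0, and they were mixed later.

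Because Ranbp6 and Ipo5 are close relatives, their sequences were compared. The proteins, of 1105 and 1097 residues, were identical at 77.8% of aligned residues, and their coding sequences at 77.1% of 3291 aligned nt. Any other pair of the 7 had a protein identity between 20.2% and 27.3%. The longest run of identical aligned bases between Ranbp6 and Ipo5 was 26 nt. Of 4545 exonic 31-mers of Ranbp6, 17 (0.374%) occurred elsewhere in the genome, and none of its 60 exonic PPSs of at least 31 nt consisted mostly of such 31-mers. The effect of inexact matches was not tested. Aligned positions were then compared. Of the Ipo5 CDS positions inside PPSs, 66.6% aligned to a Ranbp6 position inside a PPS at day 0, 62.1% at day 2 and 88.3% at day 4, next to 61.5%, 65.5% and 87.1% of all aligned Ranbp6 positions. The aligned Ipo5 positions themselves were covered to 13.0%, 12.1% and 15.0%. Only the coverage of all Ipo5 exons was lower at day 4 than at day 0, as described next.

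Each of the other 4 importers had lower pooled coverage at day 4 than at day 0, and lower still at day 2. Ipo5 (chr14:120911224-120947999, plus strand, 6001 exonic nt) had 14.7%, 7.72% and 8.23% at day 0, 2 and 4. With dsRNase the replicates read 9.40% and 8.27% at day 0, 5.35% and 1.28% at day 2, and 3.67% and 7.20% at day 4. Both later days lay below day 0. With ssRNase the values were at most 2.32% on any day and overlapped between days. The fall was in the 3′ UTR, whose coverage was 32.9%, 5.44% and 0. This last value depends on the length limit, since 2 PPSs of 34 and 39 nt, both from dsRNase replicate 1 and left out here, lay in the 3′ UTR at day 4, the longer one on the highest-scoring site of day 0. The dsRNase replicates of that 3′ UTR read 25.7% and 20.1% at day 0 and 0 at both later days, and the ssRNase replicates 3.69% and 3.69%, then 0 and 5.44%, then 0 and 0. The CDS of Ipo5 had 13.0%, 12.1% and 15.0% on the same days. The highest score lay in the 3′ UTR at day 0 (26.67) on an exon-intron boundary at day 2 (15.48) and in the CDS at day 4 (23.40).

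Kpnb1 (chr11:97159714-97187881, minus strand, 6590 exonic nt) had the highest coverage of the 7 genes after Ranbp6, with 30.6%, 17.8% and 24.7% on the 3 days. The dsRNase replicates read 21.002% and 23.1%, then 12.6% and 6.74%, then 13.5% and 11.8%, so that both later days lay below day 0. With ssRNase they were 4.58% and 2.56%, then 3.99% and 4.13%, then 4.51% and 5.84%. The ssRNase values of day 0 overlapped with those of both later days. The CDS carried most of the change, with 44.6%, 21.9% and 34.4%, while the 3′ UTR had 19.5%, 16.1% and 24.3%. Its highest scores were 27.17 (intron), 30.18 (3′ UTR) and 26.19 (CDS).

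Tnpo1 (chr13:98839019-98926384, minus strand, 11212 exonic nt) had 20.96%, 7.89% and 13.6%. Its dsRNase replicates were 13.0% and 12.4% at day 0, 5.11% and 2.67% at day 2, and 8.46% and 7.14% at day 4, again with both later days below day 0. With ssRNase day 2 (2.12% and 3.76%) lay below day 0 (5.46% and 4.11%), and day 4 (3.43% and 4.47%) overlapped with it. The highest scores were 34.43, 29.63 and 28.80. Of the Tnpo1 exonic 31-mers, 16.4% also occurred elsewhere in the genome, and 17 of its 65 exonic PPSs of at least 31 nt consisted mostly of them, so that part of the Tnpo1 coverage may be reads of other loci. The same limit applies to Ipo5 (10.0% of 31-mers, 3 of 29 PPSs), Kpnb1 (9.04%, 5 of 68) and Ipo7 (5.19%, 1 of 48). Xpo1 (0.596%) and Xpo7 (3.56%) had no such PPS.

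Ipo7 (chr7:110018274-110056609, plus strand, 11169 exonic nt) fell with both nucleases. Pooled coverage was 14.5%, 6.97% and 9.57%. The ssRNase replicates read 6.34% and 5.76% at day 0, 2.69% and 2.74% at day 2, and 4.26% and 2.76% at day 4. With dsRNase they were 5.18% and 6.87%, then 3.38% and 0.663%, then 3.91% and 3.19%. All 4 call sets of day 2 and of day 4 lay below all 4 of day 0, which held at day 4 for 5.8% of the 9550 genes and at day 2 for 5.02%.

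The strongest Ipo7 signal was intronic and recurred at all 3 days on Snora23 (chr7:110046364-110046547), whose sequence is given above. The best PPS on it scored 107.57, 75.43 and 64.94 on the 3 days. Off this RNA the highest Ipo7 scores were 34.96 (intron), 32.57 (exon-intron boundary) and 23.74 (3′ UTR). A second small nucleolar RNA gene, Gm25636 (chr7:110023210-110023342), held a PPS at each day, with scores of 29.14, 10.62 and 19.28. A PPS on a hosted small nucleolar RNA may come from the processed RNA rather than from the Ipo7 pre-mRNA, and these cannot be told apart. None of these PPSs entered the exonic coverage.

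Xpo1 (chr11:23256041-23298249, plus strand, 7181 exonic nt), the general exporter, lost coverage with both nucleases. Its pooled coverage was 27.7%, 12.8% and 15.5%, so that it fell by 12.2 points to day 4. Replicate against replicate, the change lay between -9.16 and -7.20 points, a smaller fall, since the calls of 2 replicates add up when pooled. With dsRNase the replicates read 15.9% and 14.2% at day 0, 7.13% and 2.55% at day 2, and 9.14% and 3.54% at day 4. With ssRNase they were 8.81% and 11.9%, then 6.95% and 1.91%, then 6.87% and 8.27%. Day 0 lay above both later days with either nuclease. As in Ipo5, the 3′ UTR had less coverage later, with 11.7% at day 0, 0.327% at day 2 and 0 at day 4, while the CDS had 45.4%, 17.8% and 25.4%. The ssRNase replicates of the 3′ UTR read 0 and 1.91% at day 0 and the dsRNase replicates 6.35% and 4.58%, and all 4 were at 0 at day 4. PPSs of 23, 35 and 35 nt in the 3′ UTR at day 2 and of 24 nt across its start at day 4 are not in these values, because of their length. The 5′ UTR went the other way, with 10.1%, 24.3% and 25.5%, but only with ssRNase, as every dsRNase call set had 0. Its ssRNase replicates read 0 and 10.1%, then 24.3% and 7.89%, then 25.5% and 16.4%. Day 2 thus overlapped with day 0, and day 4 lay above it, a result whose share over all genes was not computed for 5′ UTRs. Of 6 of the 7 genes with at least 10% of the 3′ UTR in PPSs at day 0, Ipo5 and Xpo1 had none at day 4 once PPSs of 20 to 40 nt were left out. With the same lengths left out this held for 10.3% of 1640 genes under the same limits (a 3′ UTR of at least 500 nt), a comparison made after the values were seen.

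The intron PPS of Xpo1 shown above had a score of 49.75 at day 0, and the region joined over the days held scores of up to 21.69 and 28.49 at day 2 and 4. It was 1 of 11 Xpo1 regions, of 67, with PPSs at all 3 days. A CDS PPS at chr11:23281326-23281388 held the highest Xpo1 score of day 4, 32.81, where the region had 8.35 at day 0 and 5.4 at day 2. The coverage of Xpo1 introns was 4.86%, 4.85% and 2.65%.

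Xpo7 was sparsely covered at every day. Of its 19005 exonic nt (chr14:70654246-70766628, minus strand), PPSs held 2.22%, 0.316% and 2.68%, and it ranked 7104, 8653 and 6578 among 9550 genes. There were 9, 4 and 12 PPSs. The ssRNase replicates read 0.247% and 0 at day 0, 0 and 0.316% at day 2, and 0.342% and 1.33% at day 4. With dsRNase they were 1.97% and 0.484%, then 0.316% and 0, then 1.94% and 1.57%. Day 4 lay above day 0 with ssRNase and overlapped with it with dsRNase, and the pooled difference of 0.468 points was within the spread between replicates, with pairs from -0.305 to 1.45 points. All 4 call sets of day 4 lay above all 4 of day 2, by a pooled 2.37 points. The lowest of day 4 (0.342%) and the highest of day 2 (0.316%) were nearly equal, however. The share of all genes with such a result against day 2 was not computed.

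The annotated Xpo7 3′ UTR has 11755 nt and only 1.05%, 0.510% and 1.46% of it lay in PPSs, which lowers the value for the gene. In the CDS of 3267 nt, coverage was 9.12%, 0 and 10.3%. By call set the CDS read 1.44%, 0, 7.68% and 2.82% at day 0 (ssRNase replicates, then dsRNase replicates) and 1.99%, 4.96%, 5.999% and 6.37% at day 4, with no PPS in any call set of day 2. The 4 CDS PPSs of day 2 had 20 to 40 nt, the size left out here. The highest scores were 14.96 (CDS), 20.94 (intron) and 20.57 (CDS) at day 0, 2 and 4, which is the 79.6th, 91.4th and 88.8th percentile of all scores of the day. Of 18 Xpo7 regions, the intron stretch shown above was the only one with PPSs at all 3 days, with scores of 9.98, 20.94 and 12.39.

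**Figure D3:**
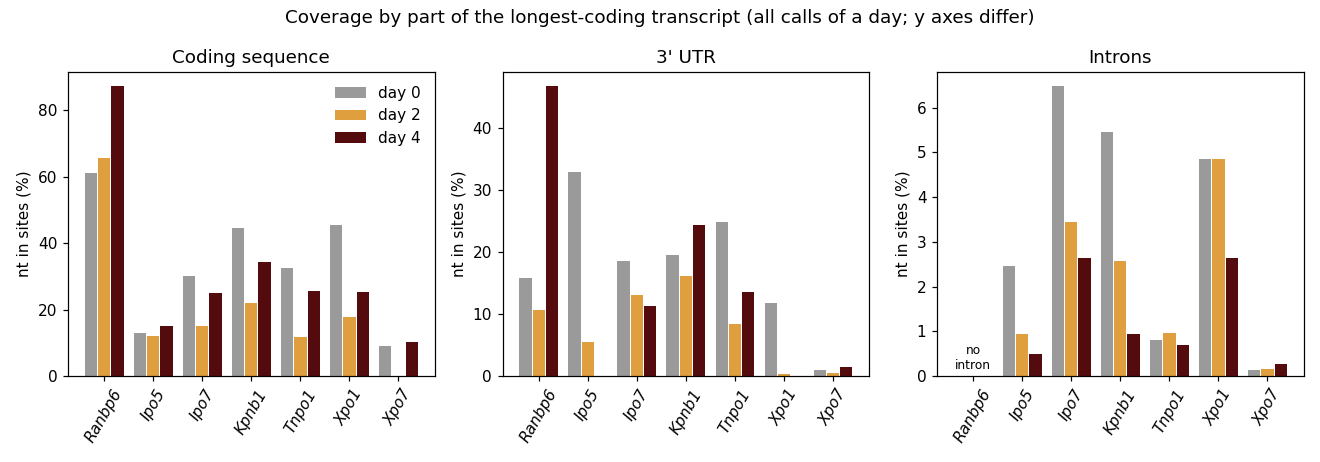
Percentage of the CDS, 3′ UTR and introns of the transcript with the longest CDS that lay in PPSs, by gene, with grey, orange and dark red bars for day 0, 2 and 4 and a y axis of its own in each panel. The 3′ UTR bars of Ipo5 (32.9% at day 0) and Xpo1 (11.7% at day 0) are absent at day 4, where PPSs of 20 to 40 nt are left out, whereas that of Ranbp6 reaches 46.7%.

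More of the 7 genes had non-overlapping lower coverage with dsRNase than with ssRNase. At day 2, 6 of 7 genes (all but Ranbp6) had both dsRNase replicates below both of day 0, against 28.1% of all genes, and none had them above, against 7.66%. With ssRNase, 3 were below at day 2 (Ipo7, Tnpo1 and Xpo1; 16.6% of all genes) and none above (23.1%). All 4 call sets of day 2 were below those of day 0 in Ipo7 and Xpo1 and above in no gene, against 5.02% and 2.13% of all genes. At day 4, 5 of 7 were below with dsRNase (Ipo5, Ipo7, Kpnb1, Tnpo1 and Xpo1; 17.4%) and 1 above (Ranbp6; 27.2%). With ssRNase, Ipo7 and Xpo1 were below (21.4%) and Ranbp6 and Xpo7 above (22.2%). All 4 call sets of day 4 were below in Ipo7 (5.8%) and above in Ranbp6 (8.08%).

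The dsRNase call set with the fewest calls, replicate 2 of day 2, moved with the day 2 result. In replicate 1 of day 2 alone, which held 41323 calls, dsRNase coverage was 5.35% (Ipo5), 3.38% (Ipo7), 12.6% (Kpnb1), 5.11% (Tnpo1), 7.13% (Xpo1) and 0.316% (Xpo7). Each of these was below both day 0 replicates of its gene, which follows from how these genes were called and is no separate check. Whether the number of calls in replicate 2 lowered the day 2 values was not tested.

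The nucleases also differed within a day. At day 0, dsRNase coverage lay above ssRNase coverage in both replicates in Ipo5, Kpnb1, Tnpo1, Xpo1 and Xpo7 (19.6% of all genes) and below it in Ranbp6 (19.6%). At day 4 it lay above in Ipo5, Kpnb1, Tnpo1 and Xpo7 (23.9%) and below in none (15.7%), and in Ranbp6 the nucleases overlapped. Kpnb1 had 22.1% ± 1.51 (SD, n = 2) under dsRNase and 3.57% ± 1.43 under ssRNase at day 0.

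The 7 genes held 234, 165 and 154 PPSs on the 3 days, while the lists held 114907, 119487 and 122038. The fall was spread over Ipo5 (26, 15 and 13), Ipo7 (45, 29 and 26), Kpnb1 (44, 27 and 27), Tnpo1 (44, 26 and 32) and Xpo1 (48, 38 and 26). Its size at day 2 depends on the length limit, which left out 43, 90 and 46 PPSs of the 7 genes on the 3 days. With all lengths the 7 genes held 277, 255 and 200. Tnpo1 then had 49, 45 and 43, and Xpo1 had 55, 63 and 32, with more at day 2 than at day 0. PPSs with calls of both replicates made up 36.3%, 32.7% and 39.6% on the 7 genes, and 30.8%, 30.8% and 35.8% of the lists. In Ranbp6 the share was 66.7%, 50% and 77.8%, whereas in Ipo5 it was 26.9%, 13.3% and 30.8%. Of 306 regions on the 6 genes without Ranbp6, 101 (33.0%) had PPSs at day 0 only and 39 (12.7%) at all 3 days, against 19.5% and 14.4% in the series. PPSs that touched no exon made up 30.8%, 37.6% and 24.7% on the 7 genes and 41.9%, 47.3% and 43.4% on all protein-coding genes. Ranbp6, which has no intron and held 18, 26 and 18 PPSs, lowers the share of the 7 genes by construction. The introns of Kpnb1 fell in coverage from 5.46% to 0.947% and those of Ipo7 from 6.48% to 2.64% between day 0 and day 4. On the opposite strand of the 7 genes there were 2 PPSs in all, 1 on Kpnb1 at day 2 and 1 on Xpo1 at day 4.

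**Figure D4:**
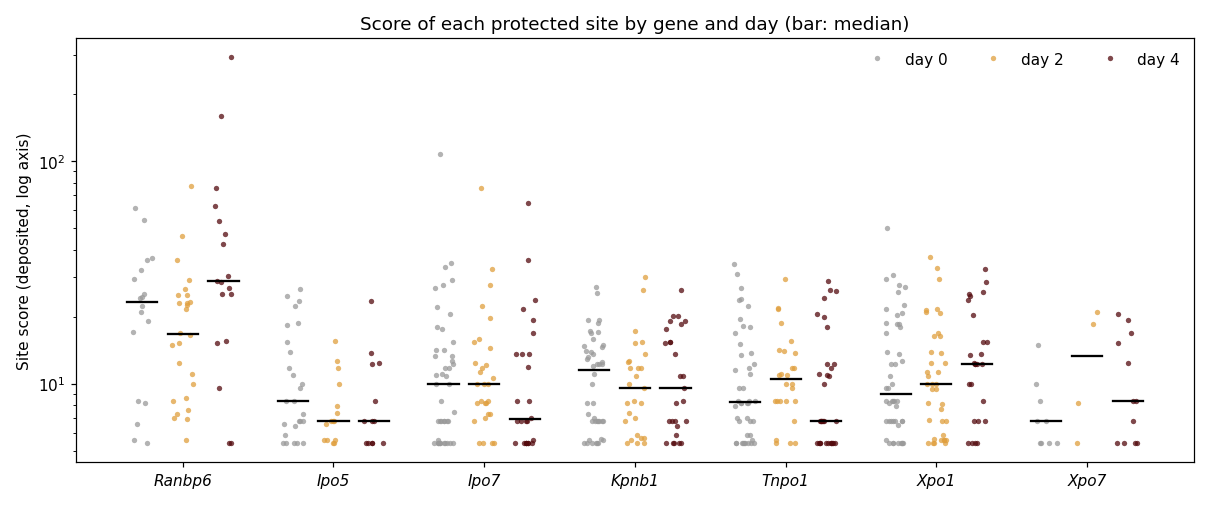
Deposited score of each PPS on a log axis, by gene and day (grey, orange and dark red for day 0, 2 and 4), with a bar at the median. The top points of Ranbp6 at day 4 are 292.73 and 159.78, and those of Ipo7 (107.57, 75.43 and 64.94) lie on Snora23.

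Other parts of the transport machinery were described with 6 lists of 57 genes, of which 55 had an exonic PPS. Pooled coverage was lower at day 4 than at day 0 in 38 and higher in 17, with a median change of -1.74 points, next to 47.5% lower, 48.5% higher and a median of 0 over all 9550 genes. At day 2, 46 were lower and 9 higher, with a median of -2.86 points, next to 54.4% lower, 42.9% higher and a median of -0.454 over all genes. With dsRNase, 33 of the 55 had both day 2 replicates below day 0 and 20 had both day 4 replicates below it (28.1% and 17.4% of all genes). With ssRNase these were 18 and 21 (16.6% and 21.4%). Genes with both replicates above day 0 numbered 4 at day 2 and 10 at day 4 with dsRNase (7.66% and 27.2%), and 8 and 11 with ssRNase (23.1% and 22.2%).

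By list, 4 of 5 other exportins were lower at day 4. Xpo5, which exports pre-miRNAs, went from 20.4% to 6.98%, and Xpot, the tRNA exporter, from 23.0% to 11.6%, and both had their day 4 replicates below day 0 with either nuclease. Of 7 other importers 4 were lower and 3 higher. Ipo13, which can both import and export, went from 3.87% to 11.1%, with day 4 above day 0 under either nuclease, and Tnpo2, the relative of Tnpo1, from 34.1% to 28.1%, below with ssRNase and overlapping with dsRNase. Of 5 importin alphas, the adaptors of Kpnb1, 2 were lower and 3 higher. Kpna2 had 40.4% at day 0 and 28.1% at day 4, below with either nuclease, and Kpna4 had 4.88% and 9.30%, above with either.

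Of 7 genes of the Ran cycle, 6 were lower at day 4 and all 7 at day 2, when 54.4% of all genes were lower. Rcc1, the exchange factor that makes Ran-GTP in the nucleus, had 12.9% and 6.76% at day 0 and 4, and Rangap1, which activates GTP hydrolysis, 16.0% and 9.97%. Both were below day 0 with ssRNase and overlapped with dsRNase. Of 28 nucleoporins 20 were lower and 8 higher. Nup43 had 11.1% at day 0 and no exonic PPS at day 4, and Nup155 had 20.95% and 10.8%, each with replicates below day 0 under either nuclease. Among 3 mRNA export factors, Nxf1, the mRNA export receptor, went from 36.2% to 49.99%, with day 4 above day 0 under dsRNase and overlap under ssRNase. Its partner Nxt1 had 14.5% and 5.82%, with overlap under both.

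**Figure D5:**
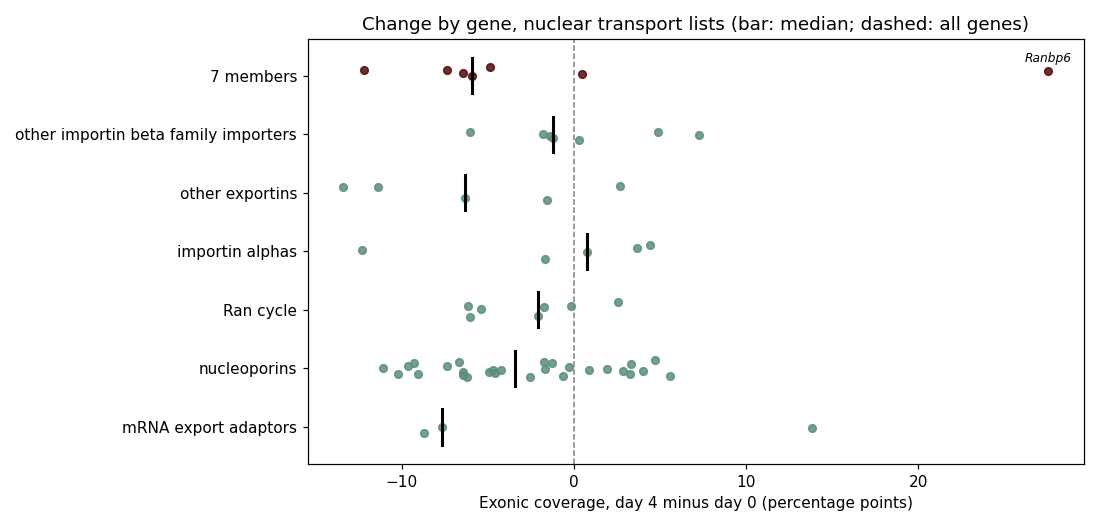
Change of pooled exonic coverage from day 0 to day 4 in percentage points for each gene with an exonic PPS, by list, with a bar at the list's median and a dashed line at the median of all 9550 genes (0). Ranbp6 stands at 27.5 points, and most points of the other exportins, the Ran cycle and the nucleoporins lie below 0.

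Genes were also ranked by how closely their coverage over the 12 call sets followed that of Ranbp6 or Xpo7, among genes with at least 500 exonic nt, a mean coverage of at least 5%, no exonic position shared with another gene and a symbol other than a Gm or Rik name. The call sets of a day share merged PPSs, so the correlations are descriptions. Ino80d had the highest Pearson r with Ranbp6 (0.951 over 12 call sets, 1937 genes searched), followed by Vamp2 (0.948) and St3gal2 (0.947). Their pooled coverage was 7.59%, 8.59% and 19.9% (Ino80d), 4.96%, 7.59% and 21.3% (Vamp2) and 7.36%, 15.6% and 35.9% (St3gal2) at day 0, 2 and 4, all well below that of Ranbp6. The r of Ranbp6 with the other members ranged from -0.300 (Ipo5) to 0.381 (Xpo7). For Xpo7, whose mean coverage was 0.709%, the highest values were those of Mzt1 (0.923), Tlk1 (0.919) and Pafah1b1 (0.910). Xpo7 itself lay under the limit on mean coverage, and its profile rests on few PPSs.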

How the data were processed

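PIP-seq PPS lists of MEL cells at day 0, 2 and 4 were used. The authors trimmed reads with cutadapt 1.2.1, aligned them to mm10 with TopHat2 2.0.10 (both per the submitters' processing notes), called PPSs with a modified CSAR package at a false discovery rate of 5%, comparing footprinting with structure-only libraries by a Poisson model, and merged the calls of a day. The deposited column used is the score, the authors' enrichment value of a PPS. Its scaling between libraries is not given in the sources used here, merged PPSs appear to carry summed scores, and the lists do not give the read depth behind a PPS. Sample groups came from the titles, and call sets from the name field.

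Exonic coverage was computed over the union exons of GENCODE M21 (GRCm38), with same-strand overlap and PPSs of 20 to 40 nt left out. CDS, UTRs and introns are those of the transcript with the longest CDS. Union regions joined PPSs that overlapped between days. No test was made: the call sets share merged coordinates, so their spread understates the replicate error, and an exact permutation test of 2 replicates against 2 cannot give a small p. Proteins were aligned globally with BLOSUM62, and 31-mers were searched in both strands of the 21 chromosomes, for exact matches. Named genes are the 7 members, the 2 genes of each transport list with the largest absolute change to day 4, the 3 closest profiles, and the marker and hosted genes. The members and lists were chosen with earlier results of these data known. Alternatives covered site lengths, replicate and nuclease support, score limits, gene models, overlap rules and each replicate left out. The functions were tested on made-up sites with known coverage. Analyses ran in Biopython 1.88, matplotlib 3.10.9, scipy 1.17.1, pandas 2.3.3 and numpy 2.4.6 under Python 3.11.15.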

Additional observations from a re-analysis of the deposited data

How the results depend on the processing

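Ranbp6 rose to day 4 under all 12 alternatives tried. The 27.5 points became 31.3 with calls of both replicates required, 45.6 with dsRNase calls only and 31.6 in the top-scoring 50% of each list, and ran from 22.7 to 33.4 when a replicate was left out. For Xpo7 the 0.468 points had no stable sign: leaving out a replicate gave -0.305 to 2.20, with -0.305 without replicate 1 and -0.279 without replicate 2 of day 4. Leaving out a replicate removes calls from 1 day only, which by construction lowers that day.

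PPSs on the 7 genes at day 0, 2 and 4 (234, 165 and 154) became 85, 54 and 61 with calls of both replicates required and 130, 92 and 84 in the top-scoring 50%. They were 133, 117 and 78 with ssRNase calls only, 145, 81 and 122 with dsRNase calls only, and 255 at day 2 with all lengths. Leaving out a replicate gave 106 to 113 at day 2 and 100 to 115 at day 4. The day 2 range reaches 157 without the dsRNase calls of its replicate 2, an alternative chosen after seeing the data.

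Of the 60 alternatives for the other 5 members at day 4, 37 moved the value beyond the replicate spread and 3 turned the direction. With a replicate left out, Xpo1 (-12.2) lay between -15.9 and -4.55, Tnpo1 (-7.37) between -11 and -1.54 and Ipo5 (-6.47) between -10.0 and -1.05. Calls of both replicates gave -4.16, -4.08 and -1.10, and -11.3 for Kpnb1. Kpnb1 gained 3.10 points with ssRNase calls only and 1.52 without replicate 1 of day 0 (range with a replicate left out -16.9 to 1.52), and Ipo7 gained 0.0806 without replicate 2 of day 0 (-8.51 to 0.0806). For the change to day 2, ssRNase calls only gave 0.567 (Ipo5), 0.258 (Kpnb1) and 0.0684 (Xpo7). The small day 2 difference of Ranbp6 (2.21) turned to -8.17 with calls of both replicates, -0.787 in the top-scoring 50%, -0.328 and -14.6 without replicate 1 or 2 of day 2 and -0.874 without the dsRNase calls of replicate 2, and was at most 8.07 with a replicate of day 0 left out. The cause was not tested. No paired analysis was possible because no test was made and the labels tie no replicate of a day to one of another day. The lists do not give the reads behind a PPS, so no bound was set where no PPS was called, as on the Xpo7 CDS at day 2.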
